A study of Mus musculus with 46 samples.

Results

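Macrophages grown from mouse bone marrow (BMDM) were treated with estradiol (E2), and their polyadenylated RNA was sequenced beside that of vehicle-treated macrophages. The E2 and Vehicle libraries were taken by the names of their columns in the deposited table. They make up 11 of the 46 libraries of a study of ligands of the estrogen receptor (ER) and the liver X receptors (LXR), with 5 E2 libraries and 6 Vehicle libraries, and all genes were looked at. Beside Vehicle, 2 other treatments are used below for a direct comparison with E2. These are ICI, the ER antagonist fulvestrant, and 27HC, the oxysterol 27-hydroxycholesterol, with 5 libraries each. The treatments were given to otherwise unmodified macrophages as far as the labels go, which state no strain, sex, dose or duration. Nor do they say that the replicates of a treatment are different mice or dishes, and the p-values measure only how far these libraries vary, which may be technical variation.

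Estradiol binds the nuclear receptors ERα (Esr1) and ERβ (Esr2), and it also binds the membrane receptor encoded by Gper1. The nuclear receptors bind DNA at estrogen response elements or act through other transcription factors bound to DNA. Macrophages carry mainly ERα, and estrogen is known to alter their cytokine output, their response to interferon and their repair functions. Fulvestrant is an estradiol derivative with a long side chain that blocks ER and leads to its degradation, and 27HC binds both ER and LXR.

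Library totals ran from 20750336 to 26600075 estimated counts in E2 and from 19935444 to 26037620 in Vehicle. Levels are given as CPM, the counts divided by library totals scaled with TMM factors. Errors after a mean CPM are SD over 5 E2 and 6 Vehicle libraries, and errors after a log2 fold change are SE. The first principal component of the 11 libraries held 16.6% of the variance and placed all E2 libraries on one side and all Vehicle libraries on the other. The share of counts from mitochondrially encoded genes was 1.84% ± 0.0993 in E2 and 1.6% ± 0.102 in Vehicle (SD, n = 5 and 6). No E2 library overlapped a Vehicle library in this share (exact permutation test, two-sided p = 0.00433, the smallest that 5 against 6 libraries can give). Of the macrophage markers, Adgre1, which encodes F4/80, measured 4282 ± 109 CPM in E2 and 4354 ± 165 CPM in Vehicle, and Csf1r, the receptor for the macrophage growth factor, measured 3188 ± 61.3 CPM in E2 and 2931 ± 82.1 CPM in Vehicle.

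E2 moved many genes by small amounts, with interferon-induced genes among those that fell and transglutaminase, growth factor and antioxidant genes among those that rose. Of 13838 genes tested, 305 (2.2%) rose and 345 (2.49%) fell at an adjusted p under 0.05 (edgeR quasi-likelihood test with Benjamini-Hochberg adjustment, as everywhere below). The median size of the change on the log2 scale was 0.20 among those that rose and 0.24 among those that fell. All E2 libraries lay above all Vehicle libraries for 229 genes (1.65% of those tested) and below them for 299 (2.16%). Among genes with a mean of at least 1 CPM, 13 rose and 33 fell by 1.5-fold or more, and none rose and 3 fell by 2-fold or more. The 3 were Ms4a4c, Gbp8 and Ifit1bl1. The median log2 fold change of all genes tested was 0.0002.

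**Figure D1:**
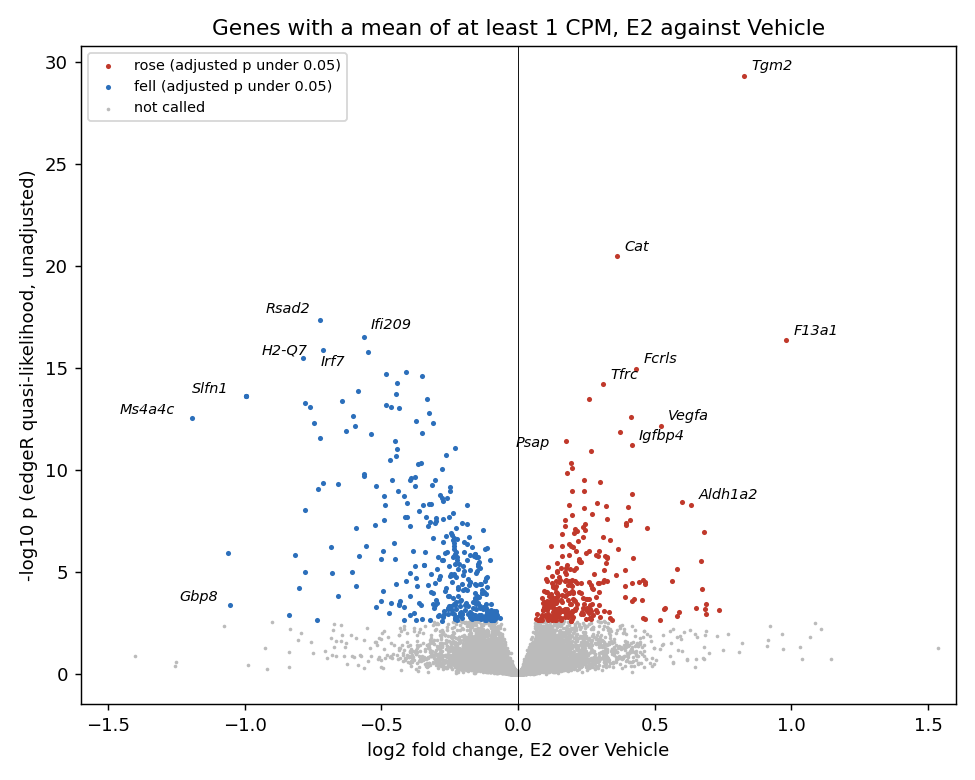
Log2 fold change of E2 over Vehicle (x axis) against −log10 of the unadjusted p (y axis) for 12135 genes with a mean of at least 1 CPM over the 11 libraries. Red points rose and blue points fell at an adjusted p under 0.05, grey points were not called, and 2 genes that were not called lie outside the range drawn. Tgm2 has the smallest p, and the genes that fell the furthest, such as Ms4a4c, reach larger changes than those that rose.

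Esr1 (ENSMUSG00000019768, chr10:4611593-5005614, plus strand of GRCm38), which encodes ERα, was expressed at a low level. It measured 6.86, 6.83, 7.52, 4.79 and 6.135 CPM in the 5 E2 libraries, against a lowest of 5.77, a median of 6.21 and a highest of 6.63 CPM in the 6 Vehicle libraries. The groups overlapped, and the log2 fold change was 0.06 ± 0.1 (SE, 95% interval -0.15 to 0.26, adjusted p = 0.864). Behind these values stood 98 to 181 estimated counts in an E2 library and 122 to 165 in a Vehicle library. Esr2 had 0 to 7 counts in an E2 library and 0 to 4 in a Vehicle library, too few to be tested. Gper1 had 6 to 12 counts in an E2 library and 3 to 18 in a Vehicle library, and its log2 fold change was 0.05 ± 0.42 (95% interval -0.79 to 0.89), so that no change was detectable at this depth. Of 26 tested genes for estrogen receptors and their coregulators, Nrip1 alone was called, a share near the 4.7% called over all genes.

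Some classical estrogen-induced genes of breast and uterus had few or no counts. Pgr, the progesterone receptor gene, had at most 1 count in any E2 or Vehicle library, and Tff1 had 0 in all 11. Greb1, which estrogen induces in breast cancer cells, had 0 to 40 counts in an E2 library and 0 to 29 in a Vehicle library. Of 28 estrogen-responsive genes with enough counts to be tested, out of 38 listed, 5 rose and 2 fell, with a median log2 fold change of 0.06, beside 2.2% risen, 2.49% fallen and a median of 0.0002 over all genes. Such genes were listed mainly from work on breast cancer cells. Vegfa, the angiogenic growth factor, and Igfbp4, a secreted protein that binds insulin-like growth factors, rose the most of the list's called members. The largest log2 fold change in the list, 0.906, was of a member that was not called.

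Vegfa (ENSMUSG00000023951, chr17:46016993-46032369, minus strand) measured 92.2, 84.4, 85.2, 81.9 and 76.2 CPM in the 5 E2 libraries, against a lowest of 54.2, a median of 58.5 and a highest of 63.4 CPM in the 6 Vehicle libraries. All E2 libraries lay above all Vehicle libraries, with a log2 fold change of 0.52 ± 0.052 (1.43-fold, adjusted p = 2.55e-10). Igfbp4 (ENSMUSG00000017493, chr11:99041244-99054392, plus strand) measured 274, 283, 297, 282 and 309 CPM in the 5 E2 libraries, against a lowest of 208, a median of 216 and a highest of 224 CPM in the 6 Vehicle libraries. Its groups did not overlap either, and its log2 fold change was 0.42 ± 0.044 (1.33-fold, adjusted p = 1.86e-09).

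The other risen members moved less. Ccnd1, which encodes the G1 cyclin D1, averaged 159 ± 9.67 CPM in E2 and 140.2 ± 11.9 CPM in Vehicle, a log2 fold change of 0.18 ± 0.046 (adjusted p = 0.00859). Sgk1, a kinase of ion transport and survival, averaged 110.5 ± 3.42 CPM in E2 and 102 ± 3.77 CPM in Vehicle, a log2 fold change of 0.11 ± 0.027 (adjusted p = 0.00561). Nrip1, a corepressor that ER induces in breast cancer cells, averaged 26.8 ± 3.67 CPM in E2 and 22.1 ± 1.6 CPM in Vehicle, a log2 fold change of 0.28 ± 0.078 (adjusted p = 0.0198). In each of these 3 genes the E2 and Vehicle libraries overlapped. The call of Nrip1 was lost without Vehicle replicate 1 (adjusted p = 0.0601), E2 replicate 1 (adjusted p = 0.0667), E2 replicate 2 (adjusted p = 0.102) or E2 replicate 5 (adjusted p = 0.0994), and Nrip1, Ccnd1 and Sgk1 were not called when the 2 groups were fitted alone, which left 2 risen members.

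Myc and Xbp1, induced by estrogen in breast cancer cells, were not called, with log2 fold changes of 0.09 ± 0.052 and 0.03 ± 0.024, and neither was Igf1, at 0.06 ± 0.032. The 2 members that fell were C3, the central complement protein, and the chemokine gene Cxcl12. C3 measured 764, 698, 619.5, 735 and 627 CPM in the 5 E2 libraries, against a lowest of 825, a median of 917 and a highest of 991 CPM in the 6 Vehicle libraries. The groups did not overlap, with a log2 fold change of -0.41 ± 0.06 (adjusted p = 2.76e-06). Cxcl12 averaged 123 ± 3.42 CPM in E2 and 135 ± 4.96 CPM in Vehicle, a log2 fold change of -0.12 ± 0.033 (adjusted p = 0.0164), and lost its call without Vehicle replicate 4 (adjusted p = 0.0511) or E2 replicate 4 (adjusted p = 0.0526).

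Of 12 tested genes of estrogen synthesis and breakdown, 2 rose and none fell, beside 2.2% risen and 2.49% fallen over all genes. The median log2 fold change of the list was 0.057. Cyp19a1, the aromatase gene, had 0 or 1 count in an E2 library and at most 2 in a Vehicle library. Ugt1a6a, a glucuronosyltransferase of a family that conjugates steroids and drugs, measured 30.3, 24.2, 26.3, 25.2 and 27.7 CPM in the 5 E2 libraries, against a lowest of 17.4, a median of 19.5 and a highest of 21.5 CPM in the 6 Vehicle libraries. Its groups did not overlap and its log2 fold change was 0.44 ± 0.095 (adjusted p = 0.00142), while reads of the Ugt1a transcripts, which share their last exons, can be split between them. Hsd17b7, an enzyme of both estradiol and cholesterol synthesis, averaged 22.85 ± 1.42 CPM in E2 and 18.95 ± 0.987 CPM in Vehicle, a log2 fold change of 0.27 ± 0.074 (adjusted p = 0.0211), and lost its call without Vehicle replicate 2 (adjusted p = 0.0587), E2 replicate 3 (adjusted p = 0.0552) or E2 replicate 4 (adjusted p = 0.0845). Hsd17b4, whose peroxisomal product oxidises estradiol, lay above all Vehicle libraries in all E2 libraries but was not called (log2 fold change 0.07 ± 0.023, adjusted p = 0.0807).

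The interferon response fell as a group. Of 34 tested members, 33 fell and none rose, beside 2.49% fallen over all genes tested, and the median log2 fold change was -0.49. All E2 libraries lay below all Vehicle libraries for 29 of the 34, beside 2.16% of all genes. Summed over the list, the level was 4850 to 5110 CPM in an E2 library and 6410 to 7020 CPM in a Vehicle library. Type I interferon acts through the factor ISGF3, which holds Stat2 and Irf9 and binds interferon-stimulated response elements in the promoters of these genes. The list was chosen with these results known, so its count describes the change and is no independent evidence of its direction. Fewer cells of a kind and less RNA per cell cannot be told apart in bulk libraries.

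Promoters of 4 of the genes that fell are shown because they carry the element, in capitals, that was searched for among the genes that fell. Each is the 300 bases from 250 before to 50 after the start of the RefSeq gene on GRCm38.p6, written 5′ to 3′ on the strand of the gene. The element searched was GAAA and GAAAC with any 2 bases between them, the core of an interferon-stimulated response element, on both strands. Where it lies on the other strand the capitals start with GTTTC and end with TTTC.
Ifit1, chr19:34640639-34640938, plus strand: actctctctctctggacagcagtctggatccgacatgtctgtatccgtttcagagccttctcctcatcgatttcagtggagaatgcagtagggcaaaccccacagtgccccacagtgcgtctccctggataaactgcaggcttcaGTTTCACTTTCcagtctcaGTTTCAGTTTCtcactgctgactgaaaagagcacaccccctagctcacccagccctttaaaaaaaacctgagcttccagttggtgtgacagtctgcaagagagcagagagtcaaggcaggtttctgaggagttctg
Ifit3, chr19:34583279-34583578, plus strand: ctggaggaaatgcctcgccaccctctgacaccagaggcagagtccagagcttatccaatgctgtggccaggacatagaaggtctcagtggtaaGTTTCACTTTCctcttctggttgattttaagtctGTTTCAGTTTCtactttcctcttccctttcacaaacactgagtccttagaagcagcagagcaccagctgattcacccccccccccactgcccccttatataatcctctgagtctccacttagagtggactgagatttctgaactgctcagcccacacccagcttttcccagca
Isg15, chr4:156200769-156201068, minus strand: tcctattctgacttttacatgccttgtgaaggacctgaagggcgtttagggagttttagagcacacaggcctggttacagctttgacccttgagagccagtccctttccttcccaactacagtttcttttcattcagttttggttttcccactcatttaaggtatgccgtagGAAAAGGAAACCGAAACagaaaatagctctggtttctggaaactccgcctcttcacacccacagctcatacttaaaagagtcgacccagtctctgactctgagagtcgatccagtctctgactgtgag
Cxcl10, chr5:92348840-92349139, minus strand: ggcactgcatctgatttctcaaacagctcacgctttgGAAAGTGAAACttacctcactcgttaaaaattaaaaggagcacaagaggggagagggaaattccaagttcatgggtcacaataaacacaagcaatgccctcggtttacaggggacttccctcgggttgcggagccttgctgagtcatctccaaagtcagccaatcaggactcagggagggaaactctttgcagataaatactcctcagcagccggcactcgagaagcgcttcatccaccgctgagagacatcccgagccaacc
The promoter of Ifit1 holds 2 matches on the other strand, ending 95 and 76 bases before the start, and that of Ifit3 holds 2 on the other strand, ending 147 and 113 bases before it. The 2 matches in the promoter of Isg15 overlap and end 68 and 62 bases before the start, and the single match in that of Cxcl10 ends 203 bases before it.

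Of the 264 genes that fell and have a promoter in the RefSeq table, 39 (14.8%) held the element. It was held by 2 of 224 genes that rose (0.893%), by 120 of 10267 genes tested (1.17%) and by 255 of all 27025 genes with a promoter (0.944%). Of the interferon list, 25 members have a promoter in the table and 12 of them (48%) held it. The full estrogen response element GGTCA and TGACC with any 3 bases between them, which reads the same on both strands, was in none of the 224 promoters of genes that rose, none of the 264 of genes that fell and 2 of the 10267 tested. The shorter sequence AGGTCA, which such elements share with those of other nuclear receptors, was in 14.3% of promoters of genes that rose, in 15.9% of those of genes that fell and in 14.6% of those tested, on either strand. These windows of 300 bases cover no distant enhancers, and a match describes the letters, not binding.

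The Ifit genes, whose products bind foreign RNA, lie side by side on chromosome 19, from Ifit2 at 34550694 to the end of Ifit1 at 34650009 of GRCm38. Ifit2 measured 189, 172, 181.5, 162 and 183 CPM in the 5 E2 libraries, against a lowest of 294, a median of 305 and a highest of 316 CPM in the 6 Vehicle libraries. The groups lay far apart, with a log2 fold change of -0.78 ± 0.07 (1.72-fold lower, adjusted p = 3.04e-11). Ifit3 measured 198, 169.7, 188, 172.5 and 183 CPM in the 5 E2 libraries, against a lowest of 293, a median of 302 and a highest of 326 CPM in the 6 Vehicle libraries, a log2 fold change of -0.75 ± 0.072 (adjusted p = 2.05e-10). Ifit1, Ifit3b and Ifit1bl1 fell too, by 0.65, 0.76 and 1.06 on the log2 scale. In all 5 of 6 tested Ifit genes fell, beside 2.49% of all genes. Ifit3 and Ifit3b are near copies of each other, so reads may be split between them.

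Rsad2, which encodes the antiviral enzyme viperin, had the smallest p of the genes that fell. It measured 62.95, 60.8, 65.7, 59.9 and 61.1 CPM in the 5 E2 libraries, against a lowest of 95.6, a median of 102 and a highest of 112 CPM in the 6 Vehicle libraries. The highest E2 library lay well under the lowest Vehicle library, with a log2 fold change of -0.72 ± 0.05 (1.65-fold lower, adjusted p = 2.05e-14). Its neighbour Cmpk2, a mitochondrial nucleotide kinase, averaged 47.6 ± 1.47 CPM in E2 and 73.5 ± 4.43 CPM in Vehicle, a log2 fold change of -0.63 ± 0.063 (adjusted p = 4.42e-10).

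Irf7, the factor that amplifies the interferon response, measured 791, 774, 837, 806 and 782 CPM in the 5 E2 libraries, against a lowest of 1109, a median of 1185 and a highest of 1203 CPM in the 6 Vehicle libraries. The groups were apart, with a log2 fold change of -0.55 ± 0.042 (1.46-fold lower, adjusted p = 3.24e-13). The genes for the ISGF3 subunits Stat2 and Irf9 fell as well. Stat2 averaged 129 ± 7.52 CPM in E2 and 171 ± 11.4 CPM in Vehicle, a log2 fold change of -0.41 ± 0.059. Irf9 fell by 0.14 on the log2 scale (adjusted p = 0.00169), and Irf1 fell by 0.23 (adjusted p = 8.02e-05) with overlapping libraries. Ifnb1, the gene of interferon beta, averaged under 0.1 CPM and was not tested.

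Other antiviral genes of the list fell alongside. Isg15, a ubiquitin-like modifier, averaged 90.3 ± 5.55 CPM in E2 and 136.5 ± 8.39 CPM in Vehicle (log2 fold change -0.60 ± 0.059), and Usp18, which removes it, averaged 55.5 ± 3.44 CPM in E2 and 80.4 ± 5.33 CPM in Vehicle (log2 fold change -0.54 ± 0.055). Oas3, an enzyme that activates RNase L, averaged 426 ± 5.31 CPM in E2 and 580 ± 24.9 CPM in Vehicle (log2 fold change -0.44 ± 0.038, adjusted p = 6.03e-12). The RNA sensor genes Ifih1 and Ddx58 fell by 0.30 and 0.32 on the log2 scale (adjusted p = 3.79e-06 and 1.06e-07). Mx2 was the one tested member that was not called, at 3.04 ± 1.02 CPM in E2 and 4.36 ± 0.519 CPM in Vehicle (log2 fold change -0.52 ± 0.23, adjusted p = 0.228).

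**Figure D2:**
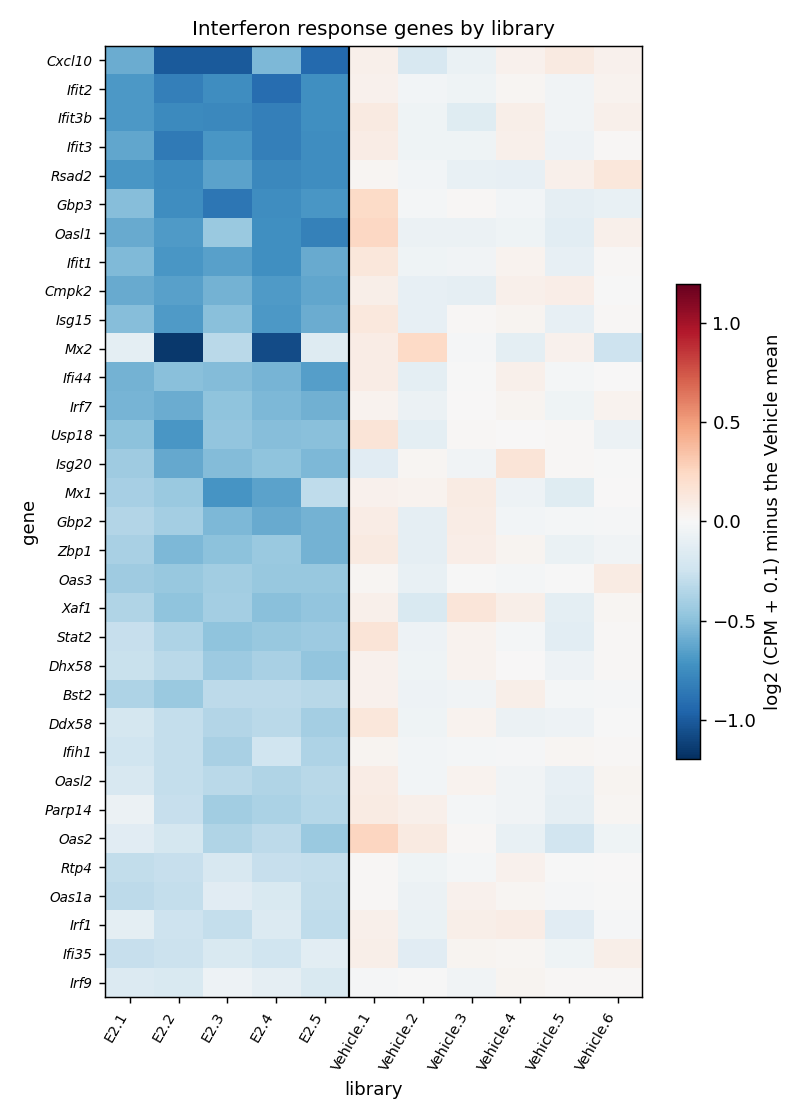
Each row is 1 of 33 tested interferon response genes and each column 1 library, the 5 E2 libraries left of the line and the 6 Vehicle libraries right of it. Colour gives log2 of CPM plus 0.1 minus the Vehicle mean of that gene, blue where lower. Every gene drawn is lower on average in E2, from Cxcl10 at the top to Irf9 at the bottom, and Mx2, at 3.04 CPM in E2, varies the most between E2 libraries.

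Interferon-inducible gene families, which the list holds in part or not at all, also fell. They were picked after their values were seen, and 2.49% of all genes tested fell. Of the Gbp genes, GTPases that attack the vacuoles of microbes, 7 of 8 tested fell, and of the related immunity-related GTPases 7 of 8. Of the Oas genes 6 of 7 fell, of the Ifi200 genes, sensors of DNA, 9 of 11, of the Schlafen genes 4 of 7 and of the Phf11 genes 3 of 4. None of these families had a member that rose. Many are tandem copies with similar sequences, so values of single members are uncertain.

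Ms4a4c, a membrane protein gene of a cluster on chromosome 19, fell the furthest of all genes with a mean of at least 1 CPM. It measured 29.1, 27.6, 30.4, 31.6 and 30 CPM in the 5 E2 libraries, against a lowest of 63.2, a median of 67.5 and a highest of 72.3 CPM in the 6 Vehicle libraries. Every E2 library had less than the lowest Vehicle library by a wide margin, with a log2 fold change of -1.19 ± 0.11 (2.29-fold lower, adjusted p = 1.21e-10). Slfn1 averaged 5.25 ± 0.355 CPM in E2 and 10.45 ± 0.552 CPM in Vehicle (log2 fold change -0.99 ± 0.088), but 2 identifiers without a name hold the same values in every library, so that its reads are divided.

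Among the genes with the smallest p were the DNA sensor family members Ifi209, Ifi204 and Ifi211, which fell by 0.56, 0.41 and 0.48 on the log2 scale. Tor3a, an interferon-inducible torsin, measured 133.5 ± 3.37 CPM in E2 and 170.5 ± 5.46 CPM in Vehicle (log2 fold change -0.35 ± 0.029). Phf11d fell by 0.58 and the GTPase gene Igtp by 0.45 on the log2 scale. Of low genes, Gbp5 averaged 8.8 ± 2.17 CPM in E2 and 15.1 ± 1.38 CPM in Vehicle, and Gbp8 1.01 ± 0.164 CPM in E2 and 2.1 ± 0.529 CPM in Vehicle. Apol9b and Olfr56 fell by 0.80 and 0.78 on the log2 scale.

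MHC class I genes, whose products show peptides to CD8+ T cells, fell too, many of them genes that interferon is known to induce. Of 18 tested genes for class I molecules and peptide loading, 14 fell and none rose, beside 2.49% fallen over all genes. The median log2 fold change was -0.23, and all E2 libraries lay below all Vehicle libraries for 13, beside 2.16% of all genes. H2-K1, a classical class I heavy chain gene, measured 2743, 2707, 2801, 2743 and 2773 CPM in the 5 E2 libraries, against a lowest of 3269, a median of 3425 and a highest of 3539 CPM in the 6 Vehicle libraries. The groups were apart, with a log2 fold change of -0.31 ± 0.031 (adjusted p = 2.04e-10). H2-D1 averaged 4163 ± 114 CPM in E2 and 4743 ± 146 CPM in Vehicle (log2 fold change -0.19 ± 0.026), and B2m, the light chain gene, 4562 ± 151 CPM in E2 and 5163 ± 129 CPM in Vehicle (log2 fold change -0.18 ± 0.029).

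Of the nonclassical class I genes, H2-Q7 averaged 39.3 ± 1.93 CPM in E2 and 64.4 ± 3.1 CPM in Vehicle, a log2 fold change of -0.71 ± 0.054 (adjusted p = 2.91e-13). H2-Q6, a near copy of H2-Q7 that can take its reads, fell by 0.79, H2-T22 by 0.47 and H2-T23 by 0.35 on the log2 scale. Tap1, of the transporter that brings peptides into the endoplasmic reticulum, averaged 156 ± 8.95 CPM in E2 and 204 ± 11.5 CPM in Vehicle (log2 fold change -0.39 ± 0.047). Tapbp, which loads them, and Psmb8, a subunit of the immunoproteasome, fell by 0.25 and 0.27.

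MHC class II genes, whose products show peptides to CD4+ T cells, rose in part. Of 13 tested genes for class II and co-stimulation, 3 rose and 1 fell, beside 2.2% and 2.49% of all genes, with a median log2 fold change of 0.07. H2-Aa measured 47.7, 54.5, 56.8, 56.95 and 53 CPM in the 5 E2 libraries, against a lowest of 38.8, a median of 43 and a highest of 45.4 CPM in the 6 Vehicle libraries. E2 and Vehicle libraries did not overlap, with a log2 fold change of 0.34 ± 0.055 (adjusted p = 2.51e-05). H2-Eb1 averaged 27.6 ± 2.32 CPM in E2 and 21.4 ± 0.883 CPM in Vehicle (log2 fold change 0.36 ± 0.063), and Cd74, the invariant chain gene, 230.3 ± 8.47 CPM in E2 and 204 ± 10.8 CPM in Vehicle (log2 fold change 0.17 ± 0.037). H2-Ab1 was not called (log2 fold change 0.13 ± 0.042, adjusted p = 0.0585). It was called without Vehicle replicate 3 (adjusted p = 0.0122), E2 replicate 1 (adjusted p = 0.0482) or E2 replicate 5 (adjusted p = 0.0356). It was also called by DESeq2 (0.037), with a minimum of 1 CPM in 5 libraries (0.0497) and with the replicate number as a block (0.0274). Cd40, a co-stimulatory receptor, fell by 0.29 on the log2 scale (adjusted p = 0.0307), a call lost without Vehicle replicate 2 (adjusted p = 0.0522), Vehicle replicate 3 (adjusted p = 0.0742), Vehicle replicate 6 (adjusted p = 0.0525), E2 replicate 2 (adjusted p = 0.181) or E2 replicate 4 (adjusted p = 0.0868).

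Of 17 tested genes with which myeloid cells restrain T cells, 2 fell and 1, Vegfa, rose, beside 2.49% and 2.2% of all genes. The median log2 fold change of the list was -0.009, with 9 members below 0 and 8 above. Lgals9, which encodes galectin-9, averaged 209 ± 1.85 CPM in E2 and 251 ± 9.49 CPM in Vehicle (log2 fold change -0.26 ± 0.029, adjusted p = 5.19e-09). Cd274, which encodes PD-L1, averaged 43.95 ± 4.09 CPM in E2 and 51 ± 2.62 CPM in Vehicle (log2 fold change -0.21 ± 0.054, adjusted p = 0.00889), a call lost without E2 replicate 5 (adjusted p = 0.0677). Both are interferon-inducible.

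Chemokine genes that changed fell, with 1 exception. Of 23 tested, 8 fell and 1 rose, beside 2.49% and 2.2% of all genes, with a median log2 fold change of -0.22. Cxcl10, an interferon-induced attractant of T cells, measured 7.75, 5.77, 5.77, 8.065 and 6.09 CPM in the 5 E2 libraries, against a lowest of 10.3, a median of 12.2 and a highest of 12.6 CPM in the 6 Vehicle libraries. No E2 library reached the Vehicle range, with a log2 fold change of -0.82 ± 0.15 (adjusted p = 0.000111). Ccl2, the main attractant of monocytes, measured 16.56, 11.1, 12.6, 13.8 and 10.1 CPM in the 5 E2 libraries, against a lowest of 16.57, a median of 18.4 and a highest of 22.3 CPM in the 6 Vehicle libraries. Its groups lay close but did not overlap, with a log2 fold change of -0.58 ± 0.1 (adjusted p = 0.000119).

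Ccl7, which shares a receptor with Ccl2, averaged 8.09 ± 1.41 CPM in E2 and 12.3 ± 2.15 CPM in Vehicle (log2 fold change -0.61 ± 0.12), and Ccl4 averaged 20.7 ± 1.53 CPM in E2 and 28.5 ± 2.14 CPM in Vehicle (log2 fold change -0.46 ± 0.056). Ccl5 and Ccl9 fell by 0.33 and 0.24 on the log2 scale. Ccl3 fell by 0.30 (adjusted p = 0.013) and lost its call without Vehicle replicate 1 (adjusted p = 0.0584), Vehicle replicate 3 (adjusted p = 0.0536) or E2 replicate 5 (adjusted p = 0.0553). The member that rose was Pf4, a chemokine of platelets and resident macrophages, at 379 ± 13.1 CPM in E2 and 310.4 ± 14.9 CPM in Vehicle (log2 fold change 0.29 ± 0.039, adjusted p = 6.68e-07).

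Of 25 tested inflammatory cytokine genes and NF-kB targets, 5 fell and 1 rose, beside 2.49% and 2.2% of all genes. The median log2 fold change was -0.108, with 20 members below 0 and 5 above. The 5 that fell were the CC chemokine genes Ccl2, Ccl3, Ccl4, Ccl5 and Ccl7, which the chemokine list above counts too. Nlrp3, the sensor of an inflammasome, rose to 75.2 ± 5.7 CPM in E2, against 63.3 ± 4.38 CPM in Vehicle (log2 fold change 0.25 ± 0.044, adjusted p = 9.17e-05). The cytokine genes Il1b and Tnf were not called. Il1b measured 159, 119, 108, 132 and 107 CPM in the 5 E2 libraries, against a lowest of 139, a median of 153.5 and a highest of 205 CPM in the 6 Vehicle libraries, with overlapping groups and a log2 fold change of -0.41 ± 0.15 (adjusted p = 0.124), and was called without E2 replicate 1 (adjusted p = 0.0485). Tnf had a log2 fold change of -0.13 ± 0.068 (95% interval -0.27 to 0.00).

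Some genes of the receptors and early signals upstream of these cytokines fell, beside 2.49% over all genes tested. Of 22 tested genes of Toll-like receptors and their signalling, Tlr1, Tlr3 and Myd88 fell by 0.19, 0.22 and 0.12 on the log2 scale and none rose, Myd88 losing its call when the 2 groups were fitted alone (adjusted p = 0.0593) and the call of Tlr3 (adjusted p = 0.0477) being lost without any 1 of 10 of the 11 libraries (adjusted p 0.0545 to 0.116). Of 19 tested immediate early genes, Junb and Zfp36, whose product destabilises cytokine messages, fell by 0.12 and 0.20. In the complement and efferocytosis list, C3 fell as above, C3ar1, the receptor of a C3 fragment, fell by 0.16 and Cfb, which amplifies C3 cleavage, by 0.28, a call lost without any 1 of 6 of the 11 libraries (adjusted p 0.0643 to 0.156). C5ar1, the receptor of the C5a fragment, rose (log2 fold change 0.13 ± 0.033), as did Gas6, a bridge between dying cells and phagocytes (log2 fold change 0.15 ± 0.031).

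**Figure D3:**
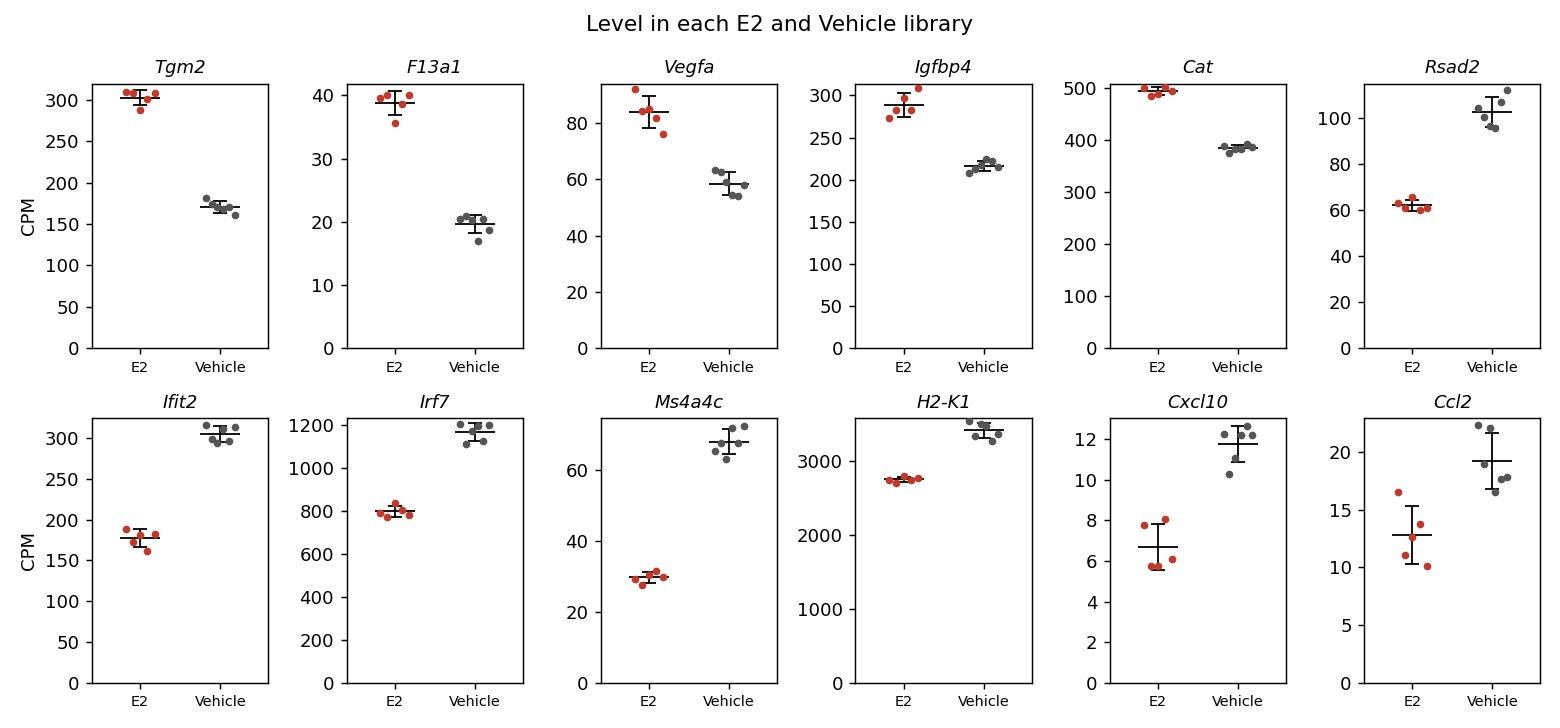
Each panel is 1 gene and each point 1 library, with E2 left and Vehicle right and the level in CPM on the y axis from 0. The bar is the mean and the whiskers are 1 SD. E2 lies above Vehicle without overlap in Tgm2, F13a1, Vegfa, Igfbp4 and Cat, and below Vehicle without overlap in Rsad2, Ifit2, Irf7, Ms4a4c, H2-K1, Cxcl10 and Ccl2.

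The clearest rises were in 2 transglutaminase genes, whose products cross-link proteins. Tgm2 (ENSMUSG00000037820, chr2:158116402-158146436, minus strand), which encodes tissue transglutaminase, measured 309, 308, 287, 300.5 and 309 CPM in the 5 E2 libraries, against a lowest of 160.3, a median of 170.1 and a highest of 181 CPM in the 6 Vehicle libraries. The groups were far apart, and its p was the smallest of all genes (log2 fold change 0.83 ± 0.028, 1.77-fold, adjusted p = 6.97e-26). F13a1 (ENSMUSG00000039109, chr13:36867178-37050244, minus strand), which encodes the A subunit of coagulation factor XIII and is used as a marker of alternatively activated macrophages, measured 39.5, 40.1, 35.6, 38.6 and 40.1 CPM in the 5 E2 libraries, against a lowest of 17, a median of 20.35 and a highest of 21 CPM in the 6 Vehicle libraries. It had the largest rise among genes with a mean of at least 1 CPM and no overlap (log2 fold change 0.98 ± 0.072, 1.97-fold, adjusted p = 1.23e-13).

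Of the other genes that rose with the smallest p, Cat encodes catalase, which breaks down hydrogen peroxide. It measured 499.9, 484, 489, 502 and 494 CPM in the 5 E2 libraries, against a lowest of 376, a median of 384 and a highest of 392.2 CPM in the 6 Vehicle libraries. The libraries of each group lay within a narrow band and the bands were apart (log2 fold change 0.36 ± 0.021, adjusted p = 2.3e-17). Fcrls, an Fc receptor-like gene known as a marker of microglia, averaged 336 ± 11.7 CPM in E2 and 249 ± 9.51 CPM in Vehicle (log2 fold change 0.43 ± 0.035, adjusted p = 1.71e-12). Tfrc, the transferrin receptor of iron uptake, averaged 195 ± 7.17 CPM in E2 and 157 ± 4.17 CPM in Vehicle (log2 fold change 0.31 ± 0.027, adjusted p = 6.06e-12).

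Psap, the precursor of the saposins that help degrade sphingolipids in lysosomes, had the largest change in CPM among called genes. It averaged 8018 ± 98 CPM in E2 and 7099 ± 90.4 CPM in Vehicle, without overlap, a log2 fold change of 0.18 ± 0.018. Lipa, the lysosomal acid lipase gene, rose by 0.19, Enc1, an actin-binding protein gene, by 0.41, the sialyltransferase gene St6gal1 by 0.37, the ubiquitin ligase gene Rnf128 by 0.26 and Bin1, which shapes membranes, by 0.27 on the log2 scale. The lysosome list held 3 risen members (Lipa, Psap and Atp6v0d2) and 3 fallen, Gla and Npc2 among them, of 29 tested, beside 4.7% called over all genes, and Atp6v0d2 lost its call when the 2 groups were fitted alone (adjusted p = 0.067). Grn, the precursor of progranulin and granulins, fell to 2835 ± 81.9 CPM in E2, against 3166 ± 90.8 CPM in Vehicle (log2 fold change -0.16 ± 0.028).

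Lower genes made up most of the rest of the largest rises. Aldh1a2, which makes retinoic acid, averaged 8.835 ± 0.419 CPM in E2 and 5.68 ± 0.735 CPM in Vehicle (log2 fold change 0.63 ± 0.087, adjusted p = 7.58e-07), and Mex3b, an RNA-binding protein gene, averaged 8.99 ± 0.577 CPM in E2 and 5.93 ± 0.583 CPM in Vehicle (log2 fold change 0.60 ± 0.081). Slc39a4, a zinc importer gene, rose to 27.35 ± 4.03 CPM in E2, against 18.5 ± 2.79 CPM in Vehicle, and Nptx1, a neuronal pentraxin gene, to 24.1 ± 2.69 CPM in E2, against 17.5 ± 2.04 CPM in Vehicle. N4bp3, Mycl, Fam78b, Zfp667 and E2f2 rose by 0.67, 0.58, 0.67, 0.53 and 0.69 on the log2 scale at means under 6 CPM. Of these, Fam78b lost its call when the 2 groups were fitted alone (adjusted p = 0.0516), Zfp667 lost its call without Vehicle replicate 2 (adjusted p = 0.0534), E2 replicate 1 (adjusted p = 0.0599) or E2 replicate 5 (adjusted p = 0.0804), and E2f2 without Vehicle replicate 1 (adjusted p = 0.084), Vehicle replicate 5 (adjusted p = 0.0522), Vehicle replicate 6 (adjusted p = 0.0719), E2 replicate 2 (adjusted p = 0.0596) or E2 replicate 3 (adjusted p = 0.106).

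Growth factor genes and those of their receptors rose where they changed. Of 27 tested, 7 rose and none fell, beside 2.2% risen and 2.49% fallen of all genes, with a median log2 fold change of 0.1. All E2 libraries lay above all Vehicle libraries for these 7, beside 1.65% of all genes. Besides Vegfa and Igfbp4 they were Pdgfb, a growth factor for mesenchymal cells (log2 fold change 0.22 ± 0.041), Hbegf, a ligand of the EGF receptor (0.29 ± 0.053), Tgfbr1, a receptor of TGF-beta (0.27 ± 0.039), Nrp1, a co-receptor of Vegfa (0.20 ± 0.047), and Csf1r (0.12 ± 0.021). Hbegf measured 16.4, 17.1, 19, 17.8 and 17 CPM in the 5 E2 libraries, against a lowest of 12.6, a median of 14.5 and a highest of 14.7 CPM in the 6 Vehicle libraries. Tgfbr1 averaged 265 ± 10.7 CPM in E2 and 219.8 ± 17 CPM in Vehicle (adjusted p = 1.92e-06).

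Of 22 tested genes of secreted proteases and matrix, 6 rose and 1, the sheddase gene Adam8, fell (log2 fold change -0.11 ± 0.019), beside 2.2% risen and 2.49% fallen of all genes. Mmp12, macrophage elastase, averaged 208 ± 4.51 CPM in E2 and 175 ± 15 CPM in Vehicle (log2 fold change 0.24 ± 0.037), and Spp1, osteopontin, 1064 ± 49.6 CPM in E2 and 922 ± 46.8 CPM in Vehicle (log2 fold change 0.21 ± 0.032), both with overlapping libraries. Mmp8, a collagenase, rose by 0.39 on the log2 scale and Adam17, which sheds TNF, by 0.12, a call lost without any 1 of 8 of the 11 libraries (adjusted p 0.0605 to 0.136).

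The alternative activation list was looked at beside F13a1. Of its 14 tested members, Mrc1, the mannose receptor gene, and Stab1, a scavenger receptor gene, rose. Socs1, an inhibitor of cytokine signalling that interferon induces, fell, and 11 were not called. Over all genes 2.2% rose and 2.49% fell. The list had a median log2 fold change of -0.012, with 7 members below 0 and 7 above. Stab1 measured 541, 548, 471, 541 and 444 CPM in the 5 E2 libraries, against a lowest of 349, a median of 366 and a highest of 429 CPM in the 6 Vehicle libraries. There was no overlap between the groups, with a log2 fold change of 0.42 ± 0.09 (adjusted p = 0.00165). Mrc1 averaged 306 ± 15 CPM in E2 and 269 ± 6.37 CPM in Vehicle (log2 fold change 0.19 ± 0.031), and Socs1 3.32 ± 0.562 CPM in E2 and 4.7 ± 0.535 CPM in Vehicle (log2 fold change -0.49 ± 0.11).

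Antioxidant genes known as targets of the factor NRF2 rose together by small amounts. Of 15 tested, 8 rose and none fell, beside 2.2% risen over all genes, with a median log2 fold change of 0.17. All E2 libraries lay above all Vehicle libraries for 6, beside 1.65% of all genes. Besides Cat, the genes that rose held Gclm and Gclc, which make up the enzyme of the first step of glutathione synthesis. Gclm measured 342.5, 336, 330.4, 378.5 and 341 CPM in the 5 E2 libraries, against a lowest of 280.1, a median of 286 and a highest of 317 CPM in the 6 Vehicle libraries. The groups did not overlap, with a log2 fold change of 0.24 ± 0.03 (adjusted p = 6.87e-08).

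Prdx1, a peroxiredoxin gene, averaged 2501 ± 99.8 CPM in E2 and 2171 ± 69.1 CPM in Vehicle (log2 fold change 0.20 ± 0.032), and Srxn1, which repairs peroxiredoxins, 177 ± 5.92 CPM in E2 and 156 ± 2.92 CPM in Vehicle (log2 fold change 0.18 ± 0.021). Txnrd1, the thioredoxin reductase gene, rose by 0.17, Gclc by 0.17 and G6pdx, the source of NADPH, by 0.10 on the log2 scale, the call of G6pdx being lost when the 2 groups were fitted alone (adjusted p = 0.0602). Slc7a11, the cystine importer gene, rose by 0.27 (adjusted p = 0.032) and lost its call without any 1 of 6 of the 11 libraries (adjusted p 0.0537 to 0.26). The textbook NRF2 targets Hmox1 and Nqo1 were not called, with log2 fold changes of 0.06 ± 0.024 and 0.17 ± 0.064, and each was called without 1 library, Hmox1 without Vehicle replicate 1 (adjusted p = 0.0315) and Nqo1 without E2 replicate 2 (adjusted p = 0.0406).

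Mitochondrially encoded transcripts were higher in E2, as their share of counts was. Of 13 tested, 6 rose and none fell, beside 2.2% risen of all genes, with a median log2 fold change of 0.26, while none of 27 tested nuclear genes for respiratory chain subunits was called by edgeR, none by DESeq2 and none had an unadjusted p under 0.05, at a median of 0.002. mt-Cytb, of complex III, measured 1240, 1364, 1441, 1366 and 1384 CPM in the 5 E2 libraries, against a lowest of 1012, a median of 1131 and a highest of 1184 CPM in the 6 Vehicle libraries. E2 and Vehicle libraries did not overlap, with a log2 fold change of 0.30 ± 0.064 (adjusted p = 0.00158). The others were mt-Nd1, mt-Nd2, mt-Nd4, mt-Nd5 and mt-Nd6 of complex I, between 0.20 and 0.27. The count was 3 without Vehicle replicate 3. mt-Nd4 lost its call without Vehicle replicate 1 (adjusted p = 0.0556) or Vehicle replicate 3 (adjusted p = 0.0581), mt-Nd5 without any 1 of 7 of the 11 libraries (adjusted p 0.0752 to 0.114) and mt-Nd6 without any 1 of 4 of the 11 libraries (adjusted p 0.0634 to 0.091). The part of their higher share of counts in other results was not tested. Fitted without mitochondrially encoded genes, 297 genes rose and 351 fell.

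Of 22 tested genes of glycolysis and hypoxia, 4 rose and none fell, beside 2.2% risen and 2.49% fallen over all genes. The median log2 fold change of the list was 0.063. Besides Vegfa, the risen members were Pgam1, Eno1 and Ldha, which rose by only 0.11, 0.09 and 0.09 on the log2 scale. The call of Eno1 was lost without any 1 of 7 of the 11 libraries (adjusted p 0.0554 to 0.13). That of Ldha was lost without any 1 of 7 of the 11 libraries (adjusted p 0.0682 to 0.162). Of 22 tested genes of the unfolded protein and integrated stress response, 4 fell and 2 rose, beside 2.49% and 2.2% of all genes. Ddit3, the stress factor CHOP, measured 15.7, 16.3, 18.4, 16.1 and 15.7 CPM in the 5 E2 libraries, against a lowest of 20.7, a median of 22.8 and a highest of 24.1 CPM in the 6 Vehicle libraries. The groups were apart, with a log2 fold change of -0.47 ± 0.053 (adjusted p = 9.06e-09). Atf4, the factor that induces it, fell by 0.14, its target Trib3 by 0.24, a call lost when the 2 groups were fitted alone (adjusted p = 0.182), and the chaperone gene Pdia4 by 0.07 on the log2 scale. The ATF4 targets that rose were Slc7a11, as above, and Psat1, of serine synthesis, by 0.15. The calls of Pdia4 and Psat1 were lost without any 1 of 8 of the 11 libraries (adjusted p 0.065 to 0.091) and 7 of the 11 libraries (adjusted p 0.0536 to 0.12).

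LXR targets and sterol genes, which other ligands of the study act on, were called about as often as all genes. Of 17 tested LXR targets 1 rose and none fell, and of 26 tested genes of cholesterol synthesis and uptake 1, Hsd17b7, rose and none fell, with medians of 0.01 and 0.007, beside 2.2% risen and 2.49% fallen over all genes. Abca1, the transporter that loads cholesterol onto apolipoprotein A-I, measured 498, 427, 387.5, 415 and 424 CPM in the 5 E2 libraries, against a lowest of 345, a median of 397 and a highest of 429 CPM in the 6 Vehicle libraries. The groups overlapped, with a log2 fold change of 0.13 ± 0.063 (95% interval 0.00 to 0.26, adjusted p = 0.311). Abcg1, which exports cholesterol to HDL, had a log2 fold change of -0.04 ± 0.074 (95% interval -0.19 to 0.11).

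Mylip, a ubiquitin ligase gene, was the LXR target that rose. It measured 42.2, 43.75, 41.2, 38.1 and 41.9 CPM in the 5 E2 libraries, against a lowest of 32.55, a median of 35.8 and a highest of 37.2 CPM in the 6 Vehicle libraries. All E2 libraries lay above the Vehicle range, with a log2 fold change of 0.24 ± 0.036 (adjusted p = 6.53e-06). Of the receptor genes, Nr1h2, which encodes LXRβ, had a log2 fold change of 0.01 ± 0.036 (95% interval -0.06 to 0.09), and Nr1h3, which encodes LXRα, of -0.18 ± 0.06 (95% interval -0.30 to -0.06, adjusted p = 0.0776). Nr1h3 measured 62.05, 57.1, 69.7, 64.1 and 62.2 CPM in the 5 E2 libraries, against a lowest of 65.8, a median of 71.9 and a highest of 74.6 CPM in the 6 Vehicle libraries. These groups overlapped, and Nr1h3 was called without E2 replicate 3 (adjusted p = 0.0348) or with the replicate number as a block (adjusted p = 0.0439).

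Of 15 tested fatty acid synthesis genes the desaturase gene Fads1 rose, by 0.10 on the log2 scale, a call lost without E2 replicate 2 (adjusted p = 0.0534). Scd2 and Fasn had log2 fold changes of 0.05 ± 0.042 and 0.13 ± 0.1. Of 13 tested PPAR targets and lipid droplet genes, 3 rose and none fell, beside 2.2% risen of all genes. Cd36, the scavenger receptor that takes up oxidised LDL and fatty acids, measured 1504, 1574, 1634, 1563 and 1553 CPM in the 5 E2 libraries, against a lowest of 1260, a median of 1375 and a highest of 1448 CPM in the 6 Vehicle libraries. There was no overlap between the groups, with a log2 fold change of 0.20 ± 0.025 (adjusted p = 1.89e-07). Fabp4, a fatty acid carrier gene, averaged 18 ± 1.02 CPM in E2 and 14.5 ± 1.17 CPM in Vehicle (log2 fold change 0.31 ± 0.062), and Ucp2, a carrier of the inner mitochondrial membrane, 819 ± 31.5 CPM in E2 and 745 ± 25.1 CPM in Vehicle (log2 fold change 0.14 ± 0.031).

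**Figure D4:**
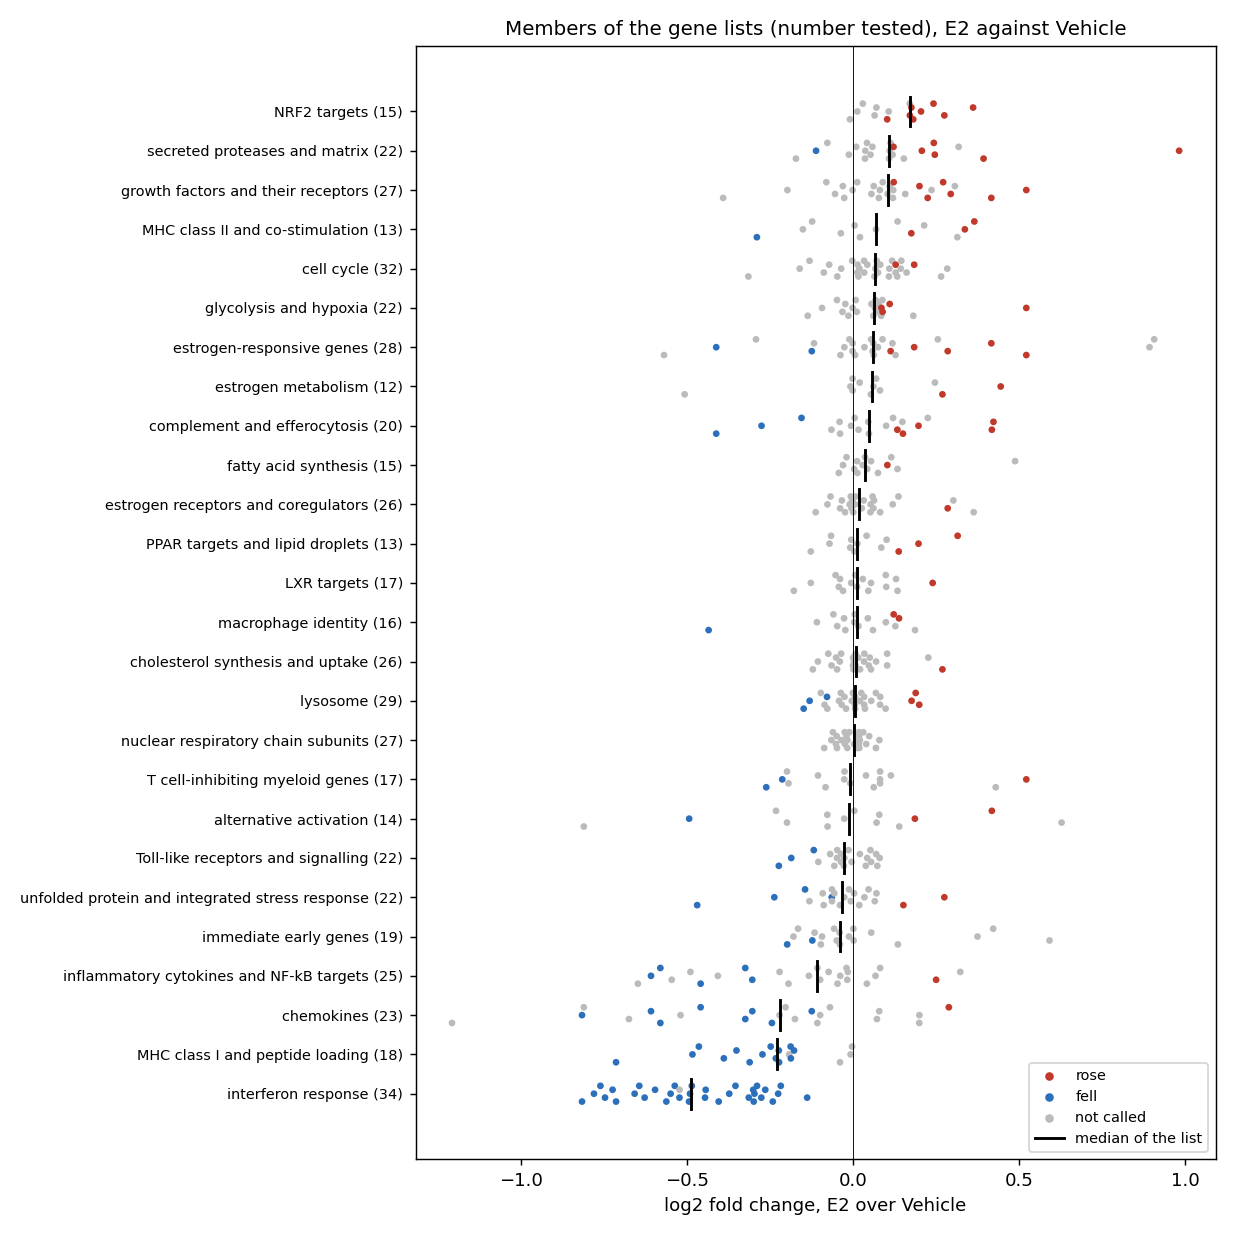
Log2 fold change of E2 over Vehicle (x axis) of each tested member of the pathway lists (rows, with the number tested), ordered by the median of the list, which a black line marks. Red members rose, blue members fell and grey members were not called. The interferon and MHC class I lists lie almost wholly below 0, the NRF2 list has the highest median, and most other lists lie around 0.

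Cell cycle genes and ribosomal protein genes are given beside 4.7% called over all genes. Of 32 tested cell cycle genes, Ccnd1 and Mcm6 rose, by 0.18 and 0.13 on the log2 scale, with Mcm6 losing its call without any 1 of 7 of the 11 libraries (adjusted p 0.0597 to 0.126), and none of 35 ribosomal protein genes was called by edgeR or DESeq2, while 2 had an unadjusted p under 0.05, at a median of 0.04. Of 16 tested genes of macrophage identity, Csf1r and Itgam, the integrin CD11b, rose and Fcgr1, the high-affinity Fc receptor for IgG, fell. Fcgr1, which interferon induces, measured 294.5, 277, 314, 282 and 279 CPM in the 5 E2 libraries, against a lowest of 373, a median of 393 and a highest of 405 CPM in the 6 Vehicle libraries. The groups were apart, with a log2 fold change of -0.44 ± 0.041 (adjusted p = 4.93e-11). Itgam averaged 870.1 ± 44.8 CPM in E2 and 791 ± 39.6 CPM in Vehicle (log2 fold change 0.14 ± 0.035), and lost its call without Vehicle replicate 4 (adjusted p = 0.0561) or E2 replicate 1 (adjusted p = 0.0773).

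Markers of other cell types that bone marrow cultures can hold were also looked at. Their counts are to be read beside 2.2% risen and 2.49% fallen over all genes tested, and their part in the results was not tested. The summed level did not overlap between groups for the monocyte and progenitor markers and for the erythroid markers. Monocyte and progenitor markers summed to 121 to 133 CPM in an E2 library and 92.3 to 104 CPM in a Vehicle library. Of 8 tested, F13a1 and S100a4 rose, and Mpo, Flt3 and Chil3 averaged under 0.1 CPM. F13a1 is one of those summed, at 35.6 to 40.1 CPM in an E2 library and 17 to 21 CPM in a Vehicle library. The call of S100a4 (log2 fold change 0.21 ± 0.057) was lost without any 1 of 4 of the 11 libraries (adjusted p 0.0555 to 0.105). Stromal markers summed to 6350 to 7000 CPM in an E2 library and 6060 to 7000 CPM in a Vehicle library, and of 11 tested Cxcl12 fell. Of 8 tested osteoclast markers, Acp5 and Atp6v0d2 rose, by 0.33 and 0.20 on the log2 scale, and the list summed to 331 to 356 CPM in E2 and 309 to 349 CPM in Vehicle.

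Neutrophil markers summed to 76 to 92 CPM in E2 and 73.4 to 90.4 CPM in Vehicle. Of 3 tested Mmp8 rose, while Ly6g, Mpo, Elane, Prtn3, Retnlg and Ctsg averaged under 0.1 CPM. Lymphocyte markers summed to 24.1 to 34.7 CPM in E2 and 21.8 to 25.7 CPM in Vehicle, dendritic cell markers to 96.9 to 109 CPM in E2 and 94.7 to 104 CPM in Vehicle, and mast cell markers to 10.5 to 11.9 CPM in E2 and 10.2 to 12.1 CPM in Vehicle, with no call by edgeR or DESeq2 among their 6, 6 and 4 tested members, of which 1 lymphocyte marker had an unadjusted p under 0.05. Cd3e and Ms4a1 averaged under 0.1 CPM over the 11 libraries. Endothelial and adipocyte markers summed to 40.8 to 42.1 CPM in E2 and 37.3 to 44.3 CPM in Vehicle, with Fabp4 risen of 6 tested. Of 2 tested erythroid markers Tfrc, which dividing and iron-taking cells of many kinds express, rose, while Gata1 and Alas2 averaged under 0.1 CPM. The erythroid list summed to 188 to 204 CPM in E2 and 152 to 164 CPM in Vehicle, and Tfrc, whose level is given above, made up most of this sum.

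The genes and lists above were also compared directly with the libraries of the other ER ligands, ICI and 27HC, which needs no Vehicle. The labels give no dose for any of the 3, so these are comparisons of the treatments as applied. Against ICI, 1812 genes (13.1% of those tested) were higher in E2 and 1988 (14.4%) lower. Against 27HC, 2581 (18.7%) were higher and 2580 (18.6%) lower. These shares are far above those against Vehicle, and every count below is to be read against them.

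Tgm2 averaged 303 ± 9.34 CPM in E2, 109 in ICI, 266 in 27HC and 171 in Vehicle. It was higher in E2 than in ICI by 1.47 ± 0.03 on the log2 scale (adjusted p = 2.79e-35) and higher than in 27HC by 0.18 ± 0.029 (adjusted p = 1.12e-06). F13a1 averaged 38.8 CPM in E2, 8.28 in ICI, 14.6 in 27HC and 19.7 in Vehicle, so that E2 alone of the 3 ligands had a mean above Vehicle, and E2 exceeded ICI by 2.23 ± 0.082 and 27HC by 1.41 ± 0.078. Vegfa was higher in E2 than in ICI by 0.94 ± 0.055 (adjusted p = 1.46e-18), and its difference from 27HC was 0.06 ± 0.053 with a 95% interval of -0.05 to 0.17. Igfbp4 was higher in E2 than in ICI by 0.85 ± 0.047 and than in 27HC by 0.25 ± 0.046, and Cat by 0.11 ± 0.021 and 0.22 ± 0.021.

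Most of the interferon list was lower in E2 than in ICI, with 32 of 34 tested members lower, none higher and a median log2 difference of -0.55. It was higher in E2 than in 27HC, with all 34 higher and a median of 1.16. Rsad2 averaged 62.1 CPM in E2, 189 in ICI, 28.4 in 27HC and 103 in Vehicle, and Irf7 798 in E2, 1069 in ICI, 273 in 27HC and 1168 in Vehicle. The difference of E2 from ICI was -1.602 ± 0.052 for Rsad2 and -0.42 ± 0.044 for Irf7, and from 27HC it was 1.13 ± 0.056 and 1.54 ± 0.045 on the log2 scale. Of the 18 MHC class I genes, 16 were lower in E2 than in ICI and none higher, and 15 were higher and 2 lower than in 27HC.

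Other lists were set beside the other ligands in the same way. Of 26 genes of cholesterol synthesis and uptake, 21 were higher in E2 than in ICI (median log2 difference 0.79) and 23 than in 27HC (median 1.11), and none was lower. Of the 22 genes of protein folding and integrated stress, 16 were lower in E2 than in ICI and 1 higher, and 16 were lower and 1 higher than in 27HC. Ccnd1, which rose against Vehicle, was lower in E2 than in ICI by 0.66 ± 0.047 and than in 27HC by 0.84 ± 0.047. Of the NRF2 targets, 4 were higher and 7 lower in E2 than in ICI. Of 13 mitochondrially encoded transcripts, none was higher in E2 than in ICI or in 27HC, and 1 and 3 were lower. Their share of counts averaged 1.84% in E2, 1.98% in ICI, 1.9% in 27HC and 1.6% in Vehicle.

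**Figure D5:**
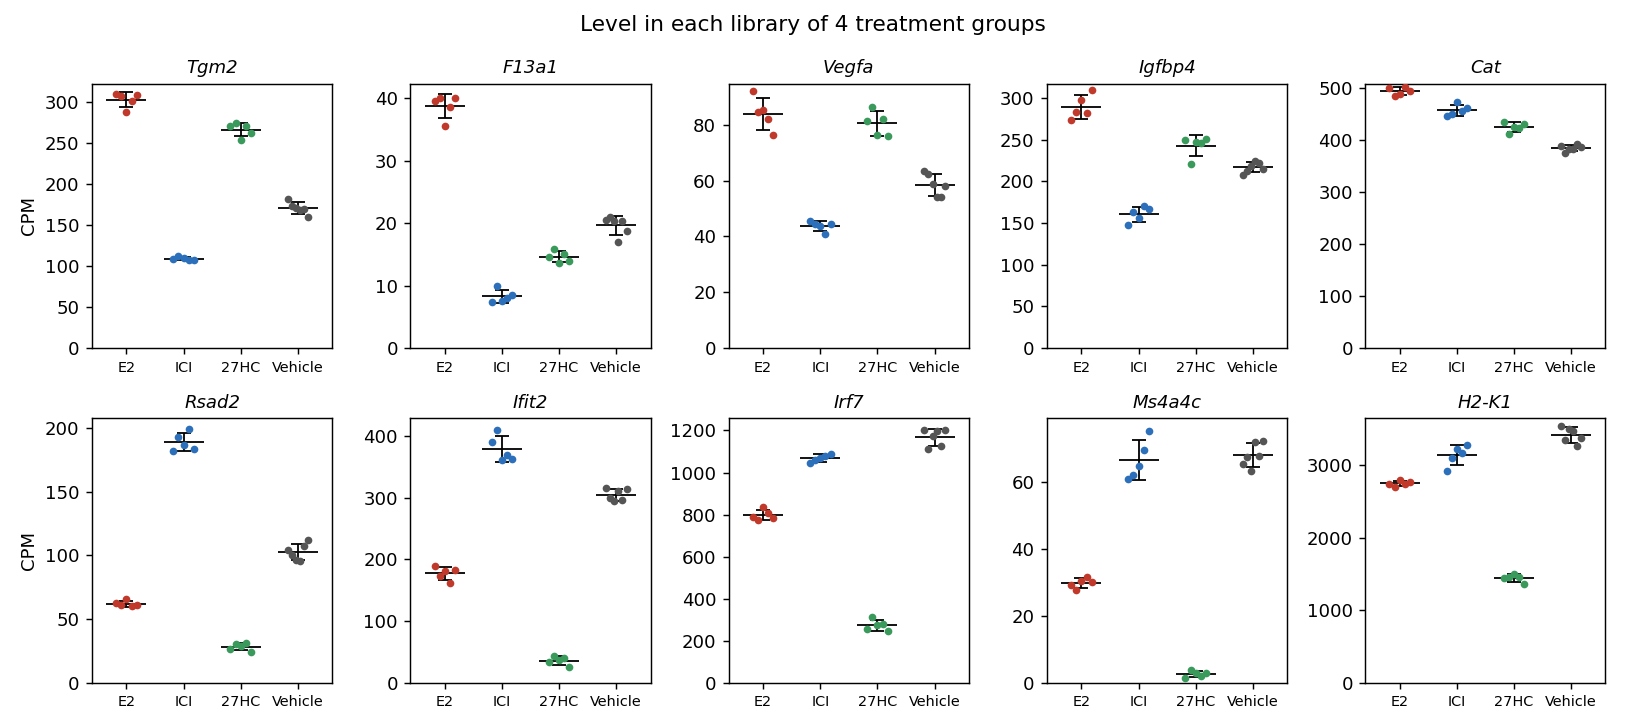
Each panel is 1 gene, with the level in CPM of each E2, ICI, 27HC and Vehicle library from left to right, the mean as a bar and 1 SD as whiskers. Tgm2, F13a1, Vegfa and Igfbp4 are above Vehicle in E2 and below it in ICI. Cat is above Vehicle in E2, ICI and 27HC. Rsad2 and Ifit2 are below Vehicle in E2, further below in 27HC and above it in ICI. The other genes drawn that are below Vehicle in E2 are not above it in ICI. Irf7 is below Vehicle in E2, ICI and 27HC, and Ms4a4c and H2-K1 are below it in E2 and 27HC. In ICI, Ms4a4c overlaps the Vehicle range. H2-K1 runs from 2921 to 3282 CPM in ICI and from 3269 to 3539 CPM in Vehicle, so that only the highest ICI library reaches the Vehicle range.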

How the data were processed

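Estimated counts per gene were deposited by the authors. The submitters' processing notes name kallisto 0.44.0 and the GRCm38 build, and the labels' protocols describe polyadenylated RNA, stranded single-read libraries and bcl2fastq 2.20. No header or label says whether the counts were corrected for transcript length. Values were rounded to whole counts, which moved a library total by at most 133. Genes were named by GENCODE M21 (24243 of 24671 IDs), and unnamed IDs held 0.483% of counts.

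All 46 libraries entered a single fit with 1 mean per group in edgeR 4.0.16 (filterByExpr, TMM, robust quasi-likelihood), which left 13838 genes, a common dispersion of 0.00571 and 37 residual degrees of freedom. p-values were adjusted by Benjamini-Hochberg over all genes tested, at 0.05. SE is the log2 fold change over the root of F. The fit was tested on simulated data, where it missed many small changes, so genes that were not called may still have changed. No 2 replicates were identical. No label gives a batch.

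Members and lists were chosen with earlier results of these data known. Genes named in the text are the receptors Esr1, Esr2, Gper1, Nr1h2 and Nr1h3 with Abca1 and Abcg1, up to 4 members of each list by p and its called members where these are few, the 12 largest changes each way among called genes with a mean of at least 1 CPM and no overlap, the 12 smallest p and the 6 largest changes in CPM each way. Predicted genes and pseudogenes were passed over. Other genes named, and the interferon-inducible families, were chosen after their values were seen. Other scalings, filters, tools and left-out libraries were tried. Promoters came from RefSeq. Equal rows (7 among genes called) and near copies cannot be told apart. The 5 libraries whose title and treatment label differ served only to estimate the spread. Some members of the lists are counted but not reported by name here.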

Additional observations from a re-analysis of the deposited data

Results flagged for a closer look

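For the genes named above and for measures of the libraries, 322 groups of 5 or 6 libraries were examined. Of these, 16 held 1 library far from the others of its group. Chance alone gives about 1 in 20, which is about as many as were found. Each value is a level in CPM. Among E2 libraries, E2 replicate 4 stood above the others of its group for Gclm (378.5), Pdia4 (150.7) and Pgam1 (759.9), and below them for Zfp36 (121.9). E2 replicate 1 was high for Ccl3 (49.51) and low for Mcm6 (78.45), E2 replicate 2 was low for Usp18 (49.41), E2 replicate 3 was high for Ddit3 (18.36) and E2 replicate 5 was low for G6pdx (235.6).

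Among Vehicle libraries, Vehicle replicate 6 was high for Mmp12 (204.8), Adam8 (1358) and Tlr1 (81.57), and Vehicle replicate 3 was high for G6pdx (243.7) and Xbp1 (158.3) and low for Hbegf (12.61). Vehicle replicate 4 was low for Srxn1 (150.3).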

How the results depend on the processing

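Between 239 and 328 genes rose and between 268 and 343 fell when 1 E2 or Vehicle library was left out. The counts were 212 and 273 with only the E2 and Vehicle libraries fitted, 243 and 281 with no filter, 308 and 342 with RLE size factors, and 364 and 402 with DESeq2. RLE size factors moved the median log2 fold change by 3e-04, and 646 genes were called under both scalings, none with the opposite sign. Replicate numbers are shared between the groups, and the deviations of libraries with the same number correlated weakly, at -0.068 to 0.142 over 5 pairs, with 1 pair over 0.1 and 3 of 5 E2 libraries closest to their own number. This is a hint from the data, and the numbers were not taken to pair the libraries. With the replicate number as a block, 434 genes rose and 409 fell, and against ICI 1921 were higher and 2116 lower, against 27HC 2662 and 2683. Leaving out 1 library gave 32 to 33 fallen interferon genes, 12 to 14 MHC class I genes and 7 to 8 chemokine genes. It gave 7 to 9 risen NRF2 targets, 7 growth factor genes, 5 to 7 protease genes, 4 to 5 estrogen-responsive genes and 3 to 8 mitochondrial transcripts. The estrogen-responsive count was 2 in the fit of the compared groups alone.

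Of 159 genes followed, 120 kept direction and call in all settings tried. Fitted with the compared groups alone, 19 lost their call (adjusted p 0.0516 to 0.327), namely Nrip1, Ccnd1, Sgk1, Cd40, Ccl3, G6pdx, Slc7a11, Itgam, Trib3, Pdia4, Psat1, Cfb, Cd274, Atp6v0d2, Mcm6, Eno1, Ldha, Myd88 and Fam78b. With no filter 10 did (0.0664 to 0.163) and under the block E2f2, Cd40, Slc7a11 and Tlr3 did (0.0583 to 0.077), while Nr1h3 (0.0439) and H2-Ab1 (0.0274) were called. The 11 reversals were all of genes that were not called. On the log2 scale Abcg1 was 0.0417 under the block, 0.006 without Vehicle replicate 5 and 0.0159 without E2 replicate 1, and with 1 library left out it ran from -0.0952 to 0.0396. The range was -0.1238 to 0.4184 for Gper1, which was -0.0118 and -0.0307 without Vehicle replicates 2 and 4, and -0.0672 and -0.0779 without E2 replicates 2 and 5. It was -0.0109 to 0.0231 for Nr1h2 and -0.0024 to 0.1436 for Esr1. The cause was not tested. Genes of a few counts, Esr2 and Gper1 among them, cannot be compared at this depth.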
